A study of Mus musculus with 16 samples.

Results

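The genes that encode elastin and proteins of the elastic fibre were followed in tdTomato-positive lung cells of 16 mice. The members are *Eln*, *Fbn1*, *Mfap2*, *Mfap4*, *Mfap5*, *Fbln1*, *Fbln2*, *Fbln5*, *Efemp2* and *Emilin1*, 10 of the 49452 genes measured and of the 21950 nuclear protein-coding genes among them. The members were chosen by name for their place in the fibre, and all 10 were found in every mouse's table. The mice carried a tamoxifen-inducible Cre and a floxed tdTomato reporter. Cre was driven by the *Acta2* promoter (*Acta2-CreERT2; tdTomatoflox*, here *Acta2-tdT*) or by the *Pdgfra* promoter (*Pdgfra-CreERT2; tdTomatoflox*, here *Pdgfra-tdT*). Each line gave 4 mice treated with saline (numbers 1 to 4) and 4 treated with bleomycin (numbers 5 to 8), an agent that injures the lung and leads to fibrosis. All mice were 11 weeks old at sampling, on day 14 after treatment. *Acta2-tdT* mice received tamoxifen in food at 400 mg/kg beginning on day 5, so that cells were labelled during the response, and *Pdgfra-tdT* mice received 5 injections of 3 mg each at 6 weeks of age, so that cells were labelled before it. The line and the time of labelling therefore cannot be told apart. Cells were sorted from the left lobe, and SmartSeq2 was used for the libraries, a protocol that amplifies full-length cDNA and keeps no strand.

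Elastic fibres give lung tissue its recoil. Elastin, secreted as soluble tropoelastin, is laid onto a scaffold of microfibrils built from fibrillin and is then cross-linked by lysyl oxidases. Microfibril-associated proteins bind the fibrillin scaffold, fibulins help to bring tropoelastin and the cross-linking enzymes together, and emilin lies at the border between elastin and microfibril. In the healthy adult lung elastin is made at a low level, and vascular smooth muscle, myofibroblasts and adventitial fibroblasts are known sources of these proteins.

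The coding sequences show how unlike the members are, since elastin is built of glycine-rich repeats and most of the others of cysteine-rich modules. Shown first is the stretch of *Eln* with the most glycine codons among all stretches of 40 codons, coding bases 2188 to 2307 of the GENCODE transcript Eln-201 (GRCm38 chr5:134707526-134707645, minus strand), with the 25 GGN codons in capitals. Shown second is the stretch of *Fbn1* with the most cysteine codons, coding bases 385 to 504 of Fbn1-202 (spliced from chr2:125466637-125468600, minus strand), with its 9 TGT or TGC codons in capitals.
Eln: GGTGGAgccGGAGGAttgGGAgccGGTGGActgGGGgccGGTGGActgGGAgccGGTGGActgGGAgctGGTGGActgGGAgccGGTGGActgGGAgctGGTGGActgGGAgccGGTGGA
Fbn1: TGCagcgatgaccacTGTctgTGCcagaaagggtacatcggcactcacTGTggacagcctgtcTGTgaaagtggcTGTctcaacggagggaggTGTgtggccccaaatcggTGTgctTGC
Over the whole coding sequence, GGN made up 36.3% of 860 codons in *Eln*, against a median of 6.03% over 21404 genes with a complete coding sequence in GENCODE. The cysteine codons TGT and TGC made up 0.233% of the codons of *Eln*, against a median of 2.13%. In *Fbn1* they made up 12.6% of 2873 codons. In the fibulins *Fbln1*, *Fbln2*, *Fbln5* and *Efemp2* the share lay between 8.76% and 10.2%, and in *Mfap2* and *Mfap5* it was 7.57% and 4.88%. *Mfap4* (2.85%) and *Emilin1* (2.26%) lay near the median.

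Promoter sequences from RefSeq (GRCm38.p6) were held for 7 members, in 12 windows. None was held for *Eln*, *Mfap4* and *Mfap5*. In 3 windows the 250 bases before the start lay outside every annotated exon, and these are shown beside the fibulin values below, where their genes had scaled log2 differences with bleomycin of -0.03, 0.76 and 1.86 in *Acta2-tdT* cells. They are *Fbln5* (chr12:101819120-101819369, minus strand), *Fbln1* (chr15:85205699-85205948, plus strand) and *Efemp2* (chr19:5473696-5473945, plus strand), each printed 5′ to 3′ on the strand of the gene. Capitals mark matches, on either strand, to 5 motifs. The GC box, which Sp factors bind, was searched as GGGCGG. The element of the SMAD proteins that carry TGF-beta signals was searched as CAGAC. The site of AP-1 was searched as TGANTCA, the promoter element that the general transcription machinery binds as TATAAA, and the site of TEAD factors known from muscle genes as CATTCC.
Fbln5: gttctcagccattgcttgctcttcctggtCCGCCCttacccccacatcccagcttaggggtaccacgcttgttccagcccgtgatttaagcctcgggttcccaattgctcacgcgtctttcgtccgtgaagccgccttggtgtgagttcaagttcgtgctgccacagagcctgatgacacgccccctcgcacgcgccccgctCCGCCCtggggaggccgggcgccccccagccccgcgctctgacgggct
Fbln1: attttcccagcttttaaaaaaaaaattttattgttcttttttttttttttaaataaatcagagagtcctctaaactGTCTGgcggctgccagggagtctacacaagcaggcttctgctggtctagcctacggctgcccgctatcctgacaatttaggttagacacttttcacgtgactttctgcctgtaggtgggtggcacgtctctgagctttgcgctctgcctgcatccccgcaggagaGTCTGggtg
Efemp2: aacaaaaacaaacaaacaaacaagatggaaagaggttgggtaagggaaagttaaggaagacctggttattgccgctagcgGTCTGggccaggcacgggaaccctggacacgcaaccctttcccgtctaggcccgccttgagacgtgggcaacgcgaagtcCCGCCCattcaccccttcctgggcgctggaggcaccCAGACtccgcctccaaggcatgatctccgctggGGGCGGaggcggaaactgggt
*Fbln5* held 2 GC boxes, *Fbln1* held 2 SMAD elements, and *Efemp2* held 2 of each. No match overlapped another, and the other 3 motifs had no match in these windows. Among all 32851 promoter windows of the same 250 bases, 32.7% held a GC box, 42.2% a SMAD element, 6.75% an AP-1 site, 12.4% the general promoter element and 12.6% a TEAD site. Such matches are letters in a window and not binding sites.

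The measurement is FPKM (fragments per kilobase of transcript and per 1000000 mapped fragments), computed by the authors for each mouse on its own. It corrects for gene length, so that levels of different genes can be compared, and it holds no counts, so that depth is unknown. The groups differed in the sum of FPKM over nuclear protein-coding genes, whose median with saline was 42700 in the *Acta2-tdT* line and 33068 in the *Pdgfra-tdT* line. With bleomycin the medians were 376950 and 46107. Each comparison is therefore given for FPKM as deposited and for FPKM scaled to the same nuclear protein-coding sum in every mouse. Levels in ppm (parts of 1000000) are a gene's FPKM per 1000000 FPKM of nuclear protein-coding genes. Olfactory receptor genes, 1084 in number and not known for a role in these cells, gave a gauge of low values. In *Acta2-tdT* bleomycin mice 9 to 10 members exceeded 95% of these genes in the same mouse. In *Acta2-tdT* saline mice 0 to 3 members did, although the lower bound that Cufflinks gives lay above 0 for all 10. In *Pdgfra-tdT* mice 0 to 3 members exceeded it with saline and 0 to 7 with bleomycin, and the lower bound lay above 0 for 9 to 10 members with saline and for 10, 10, 8 and 5 in bleomycin mice 5 to 8.

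The sorted cells were checked against marker lists. The 7 smooth muscle markers, *Acta2* among them, summed to between 4860 and 10100 ppm in *Acta2-tdT* mice and to between 34.6 and 428 in *Pdgfra-tdT* mice. The 7 fibroblast markers summed to between 151 and 291 ppm in *Pdgfra-tdT* saline and between 70.2 and 419 in *Pdgfra-tdT* bleomycin mice, where only 2 of the 7 reached 1 FPKM in 2 or more mice and *Tcf21* was listed at 0 in all 4. Except for bleomycin mouse 5, at 419, these sums did not exceed the 267 to 334 of *Acta2-tdT* saline mice, and the *Pdgfra-tdT* cells are called by their line. *Pdgfra* itself, one of the 7, was 74.1 ppm (59.2 to 101) in *Pdgfra-tdT* saline mice and 9.14 ppm (6.55 to 15.8) in *Acta2-tdT* saline mice, with no overlap. With bleomycin it was 31.7 ppm (17.8 to 47.5) and 20.6 ppm (10.8 to 25.7), and the lines overlapped. In *Acta2-tdT* bleomycin mice the fibroblast list summed to between 3200 and 5300 ppm. A pair of *Pdgfra-tdT* mice stood apart. In saline mouse 3 and bleomycin mouse 5 the 6 endothelial markers summed to 8700 and 8990 ppm, against 174 to 457 in the other saline mice and 177 to 2700 in the other bleomycin mice. Members called and counts of called genes are given with and without these mice where they differ, and the exact permutation tests are given with all mice only. In such bulk samples, fewer cells of a type and less RNA per cell cannot be told apart.

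Which elastic fibre genes differed between saline and bleomycin was asked first in *Acta2-tdT* cells. All 10 members were higher with bleomycin, by log2 differences of 1.28 to 5.95 (limma on log2(FPKM + 1), Benjamini-Hochberg adjusted p at most 4.89e-05). Of all 12523 genes tested, 70.4% were called higher, with a median log2 difference of 1.76, against a median of 4.75 for the members. After the scaling, 9 members were called higher where 23.9% of all genes were, and the medians were 2.17 for the members and -0.02 for all genes. In all 10 members every bleomycin mouse lay above every saline mouse before the scaling, against 67.8% of tested genes, and in 8 after it, against 21.5%. *Fbln2*, *Fbln5* and *Emilin1* reached 1 FPKM in bleomycin mice only, and so entered the test through the group where they were high. The counts of members above are therefore a description.

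*Eln* (ENSMUSG00000029675, GRCm38 chr5:134702593-134747323) encodes tropoelastin, the core of the fibre. Its FPKM in *Acta2-tdT* saline mice 1 to 4 were 2.49, 2.01, 2.01 and 2.83, and in bleomycin mice 5 to 8 they were 90.0, 56.5, 159 and 217. The lowest bleomycin mouse was far above the highest saline mouse, and the bleomycin mice differed among themselves more than the saline mice did. The log2 difference was 5.13 (SE 0.445, adjusted p = 1.31e-05) and 2.37 after the scaling (SE 0.269, adjusted p = 5.90e-05). In ppm, *Eln* was 53.6 ± 11.2 with saline and 340 ± 98.8 with bleomycin (SD, n = 4), a ratio of 6.34. An antisense gene, *Gm30003*, shares 3.3% of the exonic bases of *Eln*, and reads of the pair cannot be told apart without strand.

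**Figure D1:**
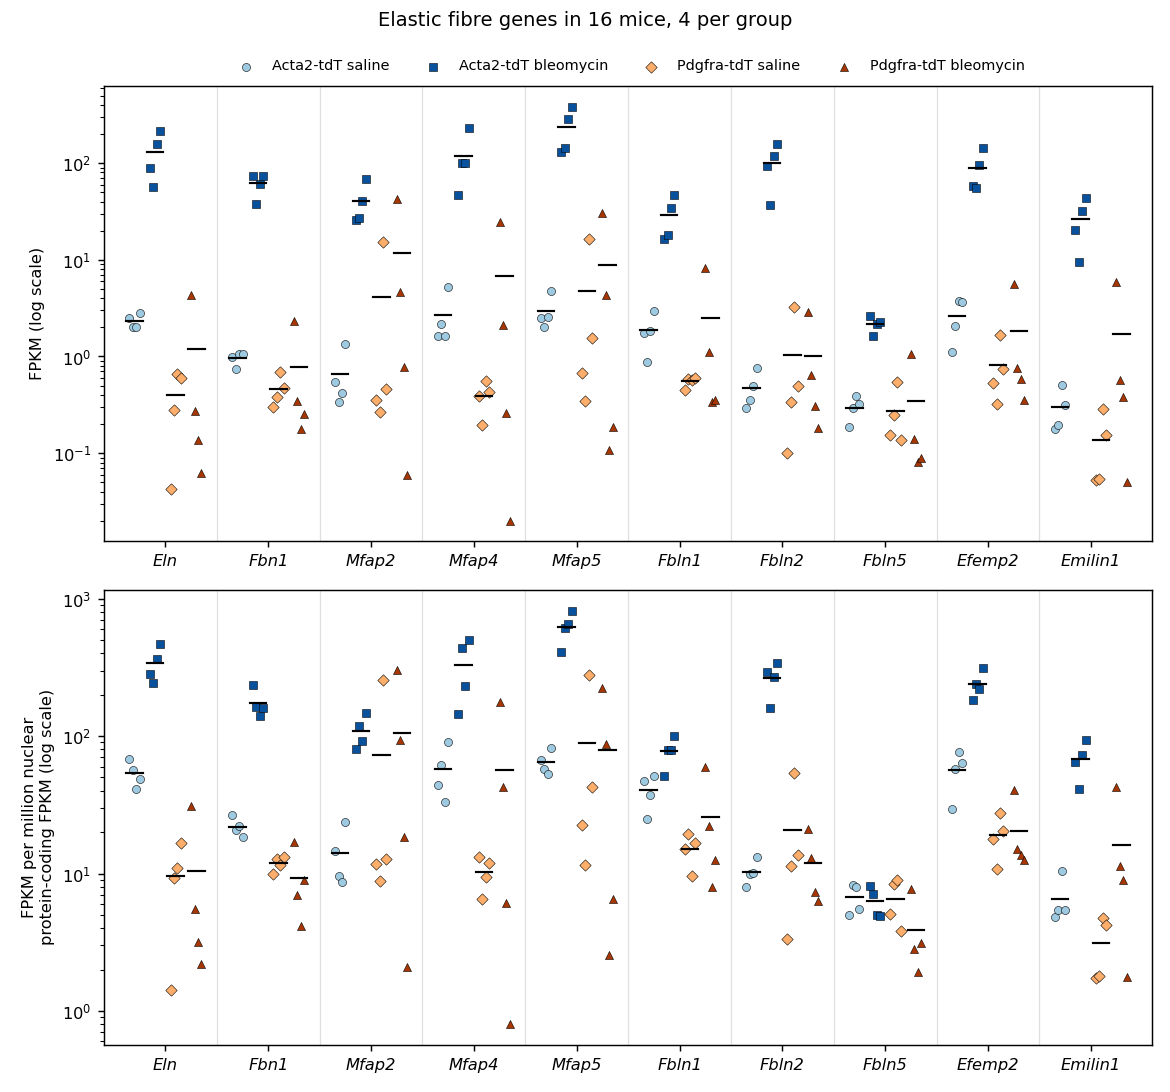
Level of each elastic fibre gene in each of the 16 mice, as FPKM (upper panel) and as ppm of nuclear protein-coding FPKM (lower panel), both on log axes; points are mice and horizontal lines are the means of 4 mice. The *Acta2-tdT* bleomycin mice lie above the *Acta2-tdT* saline mice for every gene in the upper panel, while *Fbln5* overlaps between all groups in the lower panel; the value of 0 for *Mfap4* in *Pdgfra-tdT* bleomycin mouse 8 is drawn at the foot of each panel.

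The microfibril genes came next. *Fbn1* (ENSMUSG00000027204, chr2:125300594-125507993), which encodes fibrillin-1, the backbone of the microfibril, had 0.983, 0.745, 1.07 and 1.06 FPKM with saline and 74.4, 37.6, 61.1 and 73.7 with bleomycin. These groups did not overlap, and the smallest bleomycin value was that of mouse 6, as for *Eln*. The log2 difference was 4.95 (SE 0.322, adjusted p = 7.86e-06), and 2.39 after the scaling (SE 0.217, adjusted p = 2.27e-05). *Gm9913*, on the opposite strand, shares 20.1% of the exonic bases of *Fbn1*, and for *Mfap4* (*Mapk7*) and *Efemp2* (*Mus81*) such an overlap covers 4.63% and 4.57%.

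*Mfap5* (ENSMUSG00000030116, chr6:122505845-122529290), which encodes MAGP-2, a small glycoprotein bound to fibrillin, was the most abundant member in every *Acta2-tdT* bleomycin mouse. It had 2.47, 2.04, 2.59 and 4.71 FPKM with saline and 130, 142, 284 and 380 with bleomycin. The log2 difference was 5.79 (SE 0.448, adjusted p = 1.14e-05), and 2.998 after the scaling (SE 0.277, adjusted p = 2.41e-05). *Mfap4* (ENSMUSG00000042436, chr11:61485431-61488900), whose product binds tropoelastin and fibrillin, went from between 1.62 and 5.24 FPKM to between 46.3 and 230. Its log2 difference was 4.92 (SE 0.517), and 2.19 after the scaling (SE 0.419, adjusted p = 0.00164). *Mfap2* (ENSMUSG00000060572, chr4:141010418-141015984), which encodes MAGP-1, the relative of *Mfap5*, went from between 0.341 and 1.36 FPKM to between 25.7 and 68.6, a log2 difference of 4.57 (SE 0.378) and 2.16 after the scaling (SE 0.25, adjusted p = 6.67e-05). These 3 microfibril-associated genes and *Fbn1* thus rose on both scales, with no overlap of the groups.

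The 4 fibulins differed among themselves. *Fbln2* (ENSMUSG00000064080, chr6:91212455-91272540), a fibulin of vessel walls that binds elastin and fibrillin, had the largest difference of the 10 members on both scales. It was tested through bleomycin mice only, so this rank is a description. It had 0.295, 0.356, 0.490 and 0.757 FPKM with saline and 93.0, 37.0, 118 and 157 with bleomycin, a log2 difference of 5.95 (SE 0.442, adjusted p = 1.05e-05). After the scaling it was 3.51 (SE 0.253, adjusted p = 1.83e-05), and the ratio of the ppm means was 25.8. The saline values lay around the median of the olfactory receptor genes (0.401 to 0.439 FPKM over the saline mice), below it in mice 1 and 2. This ratio therefore rests on values near the floor. *Efemp2* (ENSMUSG00000024909, chr19:5473954-5482517), which encodes fibulin-4, a partner of lysyl oxidase, went from between 1.10 and 3.75 FPKM to between 55.3 and 145, a log2 difference of 4.58 (SE 0.438) and 1.86 after the scaling (SE 0.292, adjusted p = 0.000468). *Fbln1* (ENSMUSG00000006369, chr15:85205949-85286535), a fibulin found within elastic fibres and basement membranes, went from between 0.882 and 2.98 FPKM to between 16.3 and 46.8, a log2 difference of 3.31 (SE 0.409). After the scaling this was 0.76 (SE 0.255, adjusted p = 0.0297), and the groups then overlapped.

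*Fbln5* (ENSMUSG00000021186, chr12:101746565-101819055), which tethers tropoelastin to the microfibril and to integrins, was the exception. It had 0.185, 0.295, 0.387 and 0.319 FPKM with saline and 2.60, 1.64, 2.18 and 2.26 with bleomycin. All bleomycin mice were above all saline mice, by a log2 difference of 1.28 (SE 0.165, adjusted p = 4.89e-05). After the scaling the log2 difference was -0.03 (SE 0.103, adjusted p = 0.82) and the groups overlapped. In ppm, *Fbln5* was 6.70 ± 1.67 with saline and 6.29 ± 1.62 with bleomycin (SD, n = 4), a ratio of 0.939, while the other 9 members had ratios of 1.92 to 25.8. In each saline mouse *Fbln5* lay below the median of the olfactory receptor genes (0.401 to 0.439 FPKM over these mice). In each bleomycin mouse it lay above that median (0.0316 to 0.203). Its saline values therefore cannot be told from low background, and the ratio does not show equal expression. *Emilin1* (ENSMUSG00000029163, chr5:30913402-30921277), the emilin of elastic fibres, went from between 0.177 and 0.510 FPKM to between 9.56 and 43.4, a log2 difference of 4.21 (SE 0.419) and 1.99 after the scaling (SE 0.228, adjusted p = 6.19e-05).

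**Figure D2:**
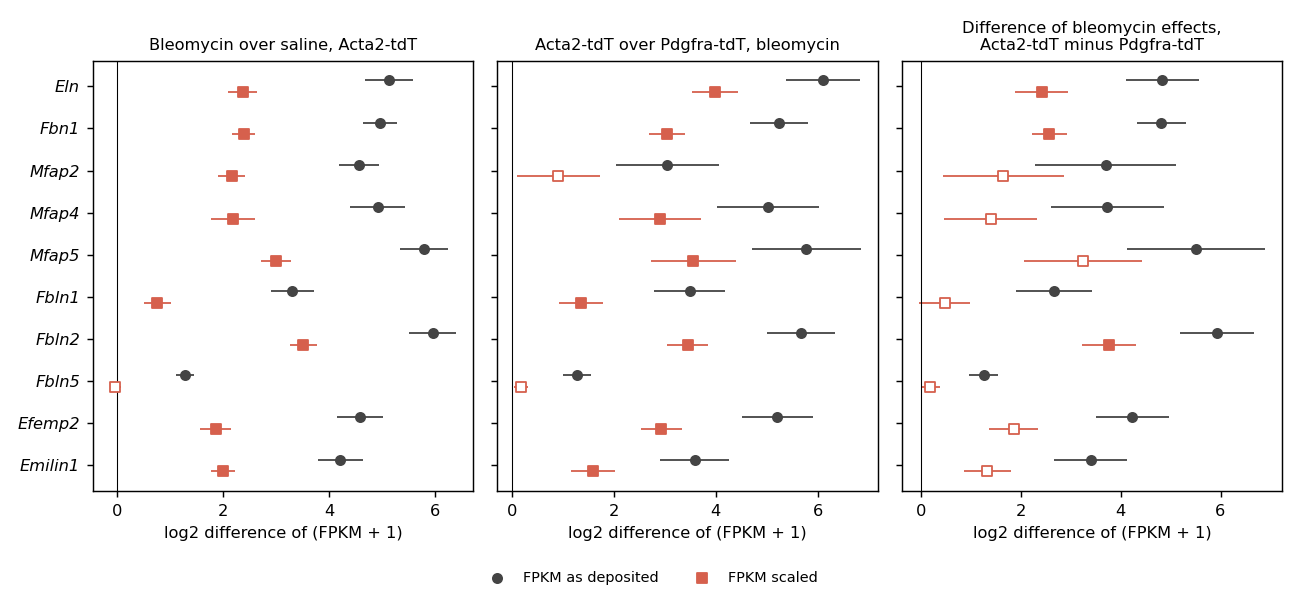
Log2 difference of (FPKM + 1) for each gene, with bars of 1 standard error, in 3 comparisons; circles are FPKM as deposited, squares are FPKM scaled to the same nuclear protein-coding sum, and filled symbols have an adjusted p under 0.05 (limma). Each square lies to the left of its circle, the scaled *Fbln5* lies at -0.03 in the left panel, and 3 squares are filled in the right panel.

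Markers of other cells moved with the treatment in *Acta2-tdT* mice. The fibroblast list went from between 267 and 334 to between 3200 and 5300 ppm, and nearly all of this was collagen. The means of *Col1a1*, *Col1a2* and *Col3a1* went from 46.5, 71.8 and 48.0 to 1750, 1590 and 720 ppm, and *Dpt* from between 21.9 and 33.1 to between 58.6 and 141. The other 3 genes of the list overlapped between the groups, *Pdgfra* with the higher mean with bleomycin (9.14 and 20.6) and *Pdgfrb* (91.6 and 78.4) and *Tcf21* (4.87 and 0.364) with the lower. The 8 macrophage markers went from between 1890 and 6930 to between 6290 and 20300 ppm, and the 5 neutrophil markers from between 20600 and 30400 to between 2610 and 17900. The endothelial list went from between 250 and 321 to between 86.9 and 148 ppm. The 5 pericyte markers went from between 455 and 676 to between 1050 and 1470 ppm, through *Postn*, which went from a mean of 150 to 1150 and is also a gene of fibroblasts. *Higd1b* (327 and 32.2), *Kcnj8* (68.1 and 30.1) and *Notch3* (23.6 and 4.81) of the same list were lower on average with bleomycin, and *Cspg4* was higher (11.1 and 29.6). The sums of the smooth muscle list overlapped, at 4860 to 7150 with saline and 6620 to 10100 with bleomycin, and were mostly *Acta2* itself (means of 4890 and 5410). Without overlap, *Myh11* was lower with bleomycin (198 to 239 and 33.9 to 67.6 ppm), as was *Lmod1* (65.8 to 106 and 6.25 to 25.6). *Des* (210 to 280 and 725 to 1260) and *Actg2* (278 to 543 and 752 to 1210) were higher. The alveolar fibroblast list of 5 genes summed to 103 to 197 ppm with bleomycin against 275 to 680 with saline, through *Inmt* (13.3 to 98.1 and 200 to 614), while *Npnt* (means of 44.8 and 25.6) and *Limch1* (50.1 and 38.3) were higher on average with bleomycin. The part of these cells in the members' differences was not tested.

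Between the lines, saline-treated mice showed a small set of differences. Only 4 members (*Eln*, *Mfap4*, *Mfap5* and *Efemp2*) reached 1 FPKM in 4 of the 8 mice and were tested, and *Eln* and *Mfap4* passed this filter through *Acta2-tdT* mice alone. *Eln* was higher in *Acta2-tdT* cells, with the *Acta2-tdT* values given above against 0.0426, 0.277, 0.656 and 0.603 FPKM in *Pdgfra-tdT* mice 1 to 4. The log2 difference was 1.28 (SE 0.204, adjusted p = 0.0172), and 1.57 after the scaling (SE 0.295, adjusted p = 0.0236). With 1 mouse left out this call was lost for 6 of the 8 mice (adjusted p = 0.0505 to 0.0818), all but *Acta2-tdT* mouse 2 and *Pdgfra-tdT* mouse 3, and after the scaling again for 6 (adjusted p = 0.0568 to 0.0912), all but *Pdgfra-tdT* mice 3 and 4. The difference stayed positive throughout. In none of the 8 mice did *Eln* exceed 95% of the olfactory receptor genes, the gauge of low values. *Mfap4* had between 0.196 and 0.560 FPKM in *Pdgfra-tdT* mice, a log2 difference of 1.30 (SE 0.299, adjusted p = 0.0686), and was called only after the scaling, at 1.52 (SE 0.308, adjusted p = 0.0322), a call that was also lost for 6 of the 8 mice left out (adjusted p = 0.0794 to 0.132). *Efemp2* had a log2 difference of 0.98 (SE 0.342, adjusted p = 0.24) and *Mfap5* of 0.27 (SE 0.773, adjusted p = 0.911). Of 8153 genes tested, 2.72% were called higher in *Acta2-tdT* cells before the scaling and 3.13% after it. Marker lists differed between the lines in the same mice. The neutrophil list summed to 20600 to 30400 ppm in *Acta2-tdT* and 341 to 1440 in *Pdgfra-tdT* saline mice, and the pericyte list to 455 to 676 and 44.5 to 82.9, and the part of such cells in these differences was not tested.

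*Pdgfra-tdT* saline mouse 3 decided part of this comparison. It had 16.6 FPKM of *Mfap5*, against 0.347 to 1.54 in the other *Pdgfra-tdT* saline mice, and 1.65 of *Efemp2*, against 0.321 to 0.736. Without it all 4 tested members were called higher in *Acta2-tdT* cells on both scales, *Efemp2* by 1.18 (adjusted p = 0.032) and *Mfap5* by 1.10 (adjusted p = 0.0345) before the scaling, where 25.1% of all genes were called higher, and 24.7% after it. The filter had kept all mice, and without mouse 3 *Efemp2*, like *Eln* and *Mfap4*, reached 1 FPKM in *Acta2-tdT* mice only. This count is therefore a description. The 6 untested members were low in both lines, with FPKM of at most 2.98 outside mouse 3. Of them, *Fbn1* and *Fbln1* had every *Acta2-tdT* mouse above every *Pdgfra-tdT* mouse. Over all 10 members, tested or not, 4 did not overlap before the scaling and 6 after it. The share of tested genes that lay apart in this direction was 6.56% and 7.75%, and it cannot be set beside these counts, since *Eln* and *Mfap4* had passed the filter through the line in which they were high and 6 members had not passed it.

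With bleomycin, all 10 members were higher in *Acta2-tdT* than in *Pdgfra-tdT* cells, where 71.0% of 11995 tested genes were called higher. After the scaling, 8 members were called, against 15.6% of genes, and the median log2 difference was 2.92 for the members and 0.19 for all genes. The groups lay apart for 9 members before the scaling, against 56.8% of genes, and for 5 after it, against 18.9%. *Eln* had 4.29, 0.275, 0.136 and 0.0629 FPKM in *Pdgfra-tdT* bleomycin mice 5 to 8. Its log2 difference was 6.10 (SE 0.729, adjusted p = 8.14e-05), and 3.99 after the scaling (SE 0.457, adjusted p = 0.000613). *Mfap5*, *Fbln2*, *Fbn1*, *Efemp2* and *Mfap4* followed, with scaled log2 differences of 3.56, 3.45, 3.05, 2.94 and 2.91. With all mice *Eln* was the largest on both scales, and without *Pdgfra-tdT* mouse 5 *Mfap5* was (6.79 against 6.65) before the scaling. *Emilin1* and *Fbln1* were called with smaller scaled differences, of 1.59 (adjusted p = 0.019) and 1.36 (adjusted p = 0.0361). The neutrophil list summed to 2610 to 17900 ppm in *Acta2-tdT* bleomycin and 219 to 1060 in *Pdgfra-tdT* bleomycin mice, the pericyte list to 1050 to 1470 and 11.6 to 78.4, and the macrophage list to 6290 to 20300 and 12900 to 35900. Most of the pericyte sum in *Acta2-tdT* bleomycin mice was *Postn*, also a gene of fibroblasts. Its means were 1150 ppm there and 19.1 in *Pdgfra-tdT* bleomycin mice. The part of such cells was likewise not tested.

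*Mfap2* and *Fbln5* were the members not called between the lines after the scaling. *Fbln5* had a scaled log2 difference of 0.19 (SE 0.137, adjusted p = 0.289). *Mfap2* had 42.1, 4.64, 0.777 and 0.0593 FPKM in *Pdgfra-tdT* bleomycin mice 5 to 8, so that mouse 5 lay among the *Acta2-tdT* bleomycin mice. Its log2 difference was 3.05 (SE 1.01, adjusted p = 0.0159), and 0.91 after the scaling (SE 0.812, adjusted p = 0.398). Without mouse 5 the scaled difference of *Mfap2* was 1.69 (adjusted p = 0.0386), and 9 members were called, against 27.3% of all genes. The filter had kept all mice. Without mouse 5, *Eln*, *Fbn1*, *Fbln2*, *Fbln5*, *Efemp2* and *Emilin1* reached 1 FPKM in *Acta2-tdT* mice only, so this count is a description.

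In *Pdgfra-tdT* cells, no member was called between bleomycin and saline. *Mfap5* alone reached 1 FPKM in 4 of the 8 mice, and it had 0.682, 0.347, 16.6 and 1.54 FPKM with saline and 30.8, 4.35, 0.108 and 0.187 with bleomycin. The groups overlapped over their whole range, with a log2 difference of 0.29 (SE 1.24, adjusted p = 0.932), and -0.24 after the scaling (SE 1.01, adjusted p = 0.917). Of 7275 genes tested, 0.0275% were called higher both before the scaling and after it, with limma, and 312 and 322 genes had an unadjusted p under 0.05. The other 9 members are given by their values alone. Their groups overlapped in every case, and the exact two-sided permutation tests gave p-values of 0.171 to 0.971 before the scaling and 0.114 to 0.971 after it. For *Eln* the ppm means were 9.58 ± 6.31 with saline and 10.5 ± 13.8 with bleomycin (SD, n = 4). For *Fbn1* they were 11.8 ± 1.40 and 9.29 ± 5.52 (SD, n = 4). For *Mfap4* they were 10.2 ± 2.91 and 56.4 ± 82.7, and for *Emilin1* 3.13 ± 1.58 and 16.2 ± 18.2 (SD, n = 4), where bleomycin mice 5 to 7 (42.8, 11.4 and 8.98 ppm) lay above every saline mouse and mouse 8 (1.76) did not. For the other 5 the means with saline and bleomycin were 72.5 and 105 (*Mfap2*), 15.2 and 25.6 (*Fbln1*), 20.6 and 11.9 (*Fbln2*), 6.56 and 3.91 (*Fbln5*) and 19.2 and 20.5 (*Efemp2*). The spread within these groups leaves large differences undetected.

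Summed over the members, the spread in *Pdgfra-tdT* cells lay mostly in mouse 3 with saline. With bleomycin mouse 5 was far above the others, and mice 6 to 8 also differed among themselves. In bleomycin mouse 5 all 10 members reached 1 FPKM, against 4 members in mouse 6 and none in mice 7 and 8. Summed over the 10 members, FPKM was 128 in mouse 5 and 14.9, 3.15 and 1.60 in mice 6 to 8. With saline the sum was 40.1 in mouse 3 and between 3.02 and 5.63 in the other 3 mice. The members did not move alike in the mice that stood apart. *Mfap2* was 257 ppm in saline mouse 3 and 305 in bleomycin mouse 5, against 8.86 to 12.8 in the other saline mice. *Mfap5* was 277 and 223 ppm in the same mice, against 11.5 to 42.6 in the other saline mice. *Eln* was 11.0 ppm in saline mouse 3, within the 1.42 to 16.7 of the other saline mice, and 31.1 in bleomycin mouse 5, above the other bleomycin mice, at most 5.54. *Fbn1* was 11.6 ppm in saline mouse 3, within 9.98 to 13.1, and 17.0 in bleomycin mouse 5, above 4.18 to 8.92. *Mfap4* (9.36 and 177 ppm) and *Fbln1* (9.55 and 59.9 ppm) were likewise high in bleomycin mouse 5 and not in saline mouse 3.

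**Figure D3:**
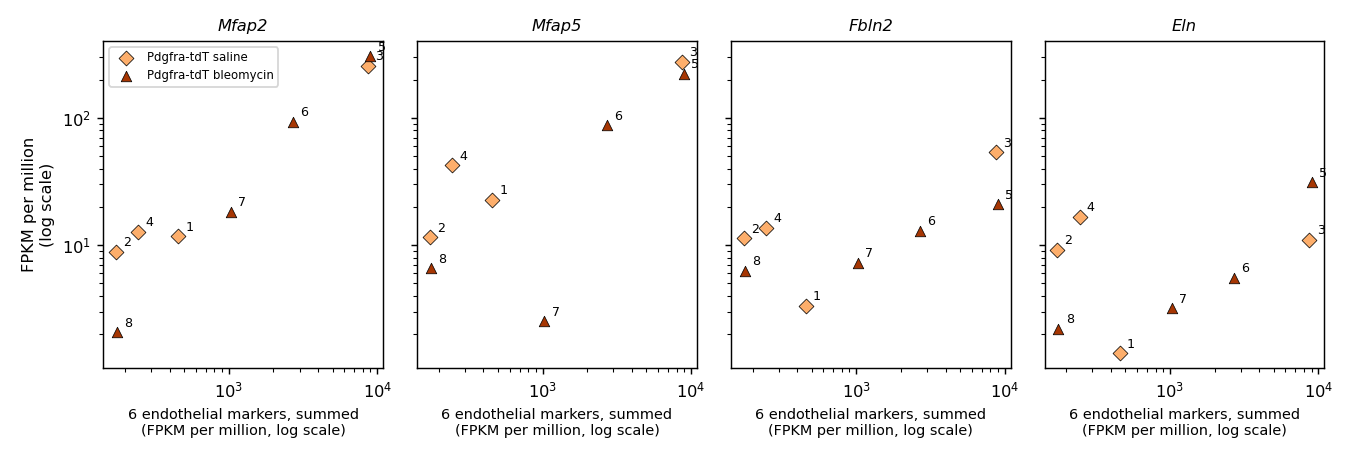
*Mfap2*, *Mfap5*, *Fbln2* and *Eln* in the 8 *Pdgfra-tdT* mice (vertical axis) against the summed level of 6 endothelial markers (horizontal axis), both as ppm of nuclear protein-coding FPKM on log axes; numbers are mice. Saline mouse 3 and bleomycin mouse 5 lie at 8700 and 8990 on the horizontal axis and have the highest *Mfap2* and *Mfap5*, while *Eln* is highest in bleomycin mouse 5 (31.1) and lies among the other mice in saline mouse 3 (11.0).

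Endothelial markers were high in the same mice. Their sum in *Pdgfra-tdT* bleomycin mice 5 to 8 was 8990, 2700, 1030 and 177 ppm, in the same order as *Mfap2*, at 305, 93.4, 18.3 and 2.08. The order did not hold for every member, since mouse 8 lay above mouse 7 for *Mfap5* (6.57 and 2.54 ppm), *Fbn1* (8.92 and 4.18), *Fbln1* (12.5 and 7.93) and *Fbln5* (3.11 and 1.91). All 6 markers (*Pecam1*, *Cdh5*, *Kdr*, *Cldn5*, *Tie1* and *Egfl7*) reached 1 FPKM in saline mouse 3 and bleomycin mouse 5, against 2 in each other saline mouse. Markers listed for adventitial fibroblasts were also high, at 5270 ppm in saline mouse 3 and 7520 in bleomycin mouse 5 against 217 to 286 in the other saline mice and 3890, 1130 and 310 in bleomycin mice 6 to 8. Most of that sum was *Ly6a*, at 4870 and 6930 ppm. Fibroblast markers were 291 and 419 ppm. Macrophage markers were 12900 to 35900 ppm in *Pdgfra-tdT* bleomycin and 637 to 2580 in *Pdgfra-tdT* saline mice. The part of any of these cells in the members' levels was not tested.

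Whether bleomycin had a different effect in the lines was tested as the interaction of line and treatment over all 16 mice. It was called for all 10 members, with a larger difference in *Acta2-tdT* cells, where 36.6% of 16605 tested genes were called in this direction. After the scaling it was called for 3 members, *Fbln2* (3.77, SE 0.547, adjusted p = 0.00194), *Fbn1* (2.57, SE 0.355, adjusted p = 0.00144) and *Eln* (2.42, SE 0.528, adjusted p = 0.0282), against 1.24% of genes. The scaled values of the other 7 lay between 0.18 and 3.23, with adjusted p-values from 0.0591 (*Efemp2*) to 0.648. Without *Pdgfra-tdT* bleomycin mouse 5, *Efemp2*, *Emilin1* and *Mfap5* were also called, 6 in all, against 2.87% of genes. Without that mouse *Emilin1* reached 1 FPKM in *Acta2-tdT* bleomycin mice only. The count was again 6 with saline mouse 3 left out too, against 3.70%. Without saline mouse 3 alone, *Mfap2* was no longer called before the scaling (2.80, adjusted p = 0.0954).

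Summed, the 10 members made up 0.0333 ± 0.00465% of nuclear protein-coding FPKM in *Acta2-tdT* saline and 0.223 ± 0.0504% in *Acta2-tdT* bleomycin mice (SD, n = 4). In *Pdgfra-tdT* mice they made up 0.0257 ± 0.0277% with saline and 0.0339 ± 0.0407% with bleomycin (SD, n = 4), spreads as large as the means. The range was 0.0100 to 0.0671% with saline, where mouse 3 was highest, and 0.00560 to 0.0926% with bleomycin, where mouse 5 was highest. Without these 2 mice the sums were 0.0119 ± 0.00318% and 0.0143 ± 0.0136% (SD, n = 3).

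The make-up of that sum within a mouse does not depend on the scaling. In *Acta2-tdT* bleomycin mice the order of the mean shares was *Mfap5* (27.8 ± 3.12%), *Eln* (15.2 ± 2.44%), *Mfap4* (14.2 ± 5.65%), *Fbln2* (12.1 ± 3.74%), *Efemp2* (10.7 ± 0.495%), *Fbn1* (8.27 ± 3.52%), *Mfap2* (4.90 ± 0.542%), *Fbln1* (3.45 ± 0.383%), *Emilin1* (3.06 ± 0.753%) and *Fbln5* (0.302 ± 0.131%), each as SD with n = 4. The ranges of neighbours in this order overlapped, except between *Mfap5* and *Eln*, between *Mfap2* and *Fbln1* and between *Emilin1* and *Fbln5*. Against *Acta2-tdT* saline mice, the mean shares of *Fbln2* and *Mfap5* lay above their saline values of 3.09 ± 0.367% and 19.4 ± 1.67% (SD, n = 4). Those of *Fbln1* and *Fbln5* lay below their saline values of 12.1 ± 2.98% and 2.06 ± 0.678% (SD, n = 4). For these 4 genes the groups did not overlap (p = 0.0286 by the exact two-sided permutation test, its lowest value, and 0.114 after adjustment over the 40 tests of 10 members in 4 comparisons). The share of *Eln* overlapped, at 16.4 ± 4.24% with saline and 15.2 ± 2.44% with bleomycin (SD, n = 4, exact two-sided permutation test, p = 0.657). In *Pdgfra-tdT* mice *Eln* made up 5.73 ± 4.91% with saline and 3.37 ± 1.09% with bleomycin, below every *Acta2-tdT* mouse of the same treatment. No share passed the threshold after adjustment.

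**Figure D4:**
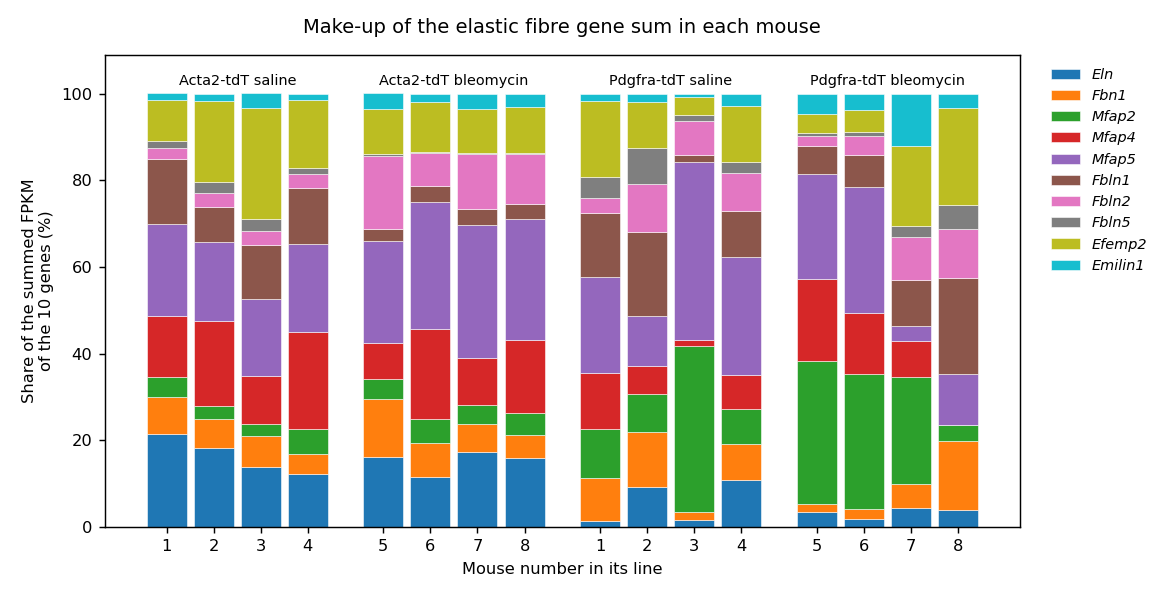
Share of each gene in the summed FPKM of the 10 elastic fibre genes, in percent, as one stacked bar for each mouse. *Fbln2* takes 12.1% on average in *Acta2-tdT* bleomycin mice against 3.09% with saline, and *Mfap2* and *Mfap5* fill most of the bar of *Pdgfra-tdT* saline mouse 3.

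Other genes that build the fibre were followed as a list of 26, led by the cross-linking enzymes. In *Acta2-tdT* cells 19 were tested and all 19 were higher with bleomycin, where 70.4% of all genes were. After the scaling 12 were higher and 3 lower, where 23.9% of all genes were higher and 4066 of 12523 lower. Of the 19, 10 (*Lox* and *Fn1* among them) reached 1 FPKM in bleomycin mice only and so entered the test through the group where they were high before the scaling, and these counts are a description. *Lox*, the lysyl oxidase that cross-links elastin and collagen, went from 0.242 ± 0.061 to 44.1 ± 18.0 FPKM (SD, n = 4), a log2 difference of 5.08 (SE 0.358, adjusted p = 8.75e-06) and 2.79 after the scaling (adjusted p = 1.71e-05), and is one of these 10. *Loxl1*, which acts on elastin, went from 1.15 ± 0.135 to 37.6 ± 15.3 FPKM (SD, n = 4), a log2 difference of 4.06 and 1.51 after the scaling. *Ltbp4*, a partner of *Fbln5* in elastin assembly, went from 3.97 ± 1.13 to 44.1 ± 15.1 FPKM (SD, n = 4), a log2 difference of 3.13 and, after the scaling, 0.39 (adjusted p = 0.207). *Fbn2*, the fibrillin of development, was not tested and had 0.160 ± 0.0194 and 1.04 ± 0.932 FPKM (SD, n = 4). The largest difference on both scales was that of *Fn1*, which encodes fibronectin (6.82, and 4.32 after the scaling). *Bgn*, a proteoglycan, differed by 5.62 and by 2.71 after the scaling. The genes called lower after the scaling were *Adamts10*, *Adamtsl4* and *Thsd4*, at -0.66, -0.33 and -0.64, and they are named here after their values were seen. *Adamtsl5*, a relative of *Adamtsl4*, was called higher (0.72, adjusted p = 0.0371).

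Between the lines with bleomycin, 20 of 21 tested genes of this list were higher in *Acta2-tdT* cells, where 71.0% of all genes were, and 14 were higher and 1 lower after the scaling, where 15.6% of all genes were higher and 2124 of 11995 lower. Of the 21, 8 (*Loxl1* and *Ltbp2* among them) reached 1 FPKM in *Acta2-tdT* mice only, so these counts too are a description. *Lox* had 0.505 ± 0.782 FPKM (SD, n = 4) in *Pdgfra-tdT* bleomycin mice, a scaled log2 difference of 2.82 (adjusted p = 0.000626). In saline-treated mice 2 of 5 tested were higher in *Acta2-tdT* cells, *Bgn* (2.04, adjusted p = 0.0438) and *Ltbp2* (1.36, adjusted p = 0.00454), while 3 were called once scaled, where 2.72% and 3.13% of all genes were. *Ltbp2* reached 1 FPKM in *Acta2-tdT* mice only and so entered the test through the line where it was high. Without *Pdgfra-tdT* saline mouse 3 all 5 were called on both scales, where 25.1% and 24.7% of all genes were. None of 4 tested was called between bleomycin and saline in *Pdgfra-tdT* cells, where 0.0275% of all genes were called higher, and none was without the mice that stood apart. The interaction was called for 18 of 21 genes, against 36.6% of all genes, and for 7 after the scaling, against 1.24%, *Fn1* and *Lox* having the largest scaled values among them (3.73 and 3.04). Without both mice that stood apart these counts were 19 and 9, against 48.3% and 3.70% of all genes. Of the 21, 5 reached 1 FPKM in *Acta2-tdT* bleomycin mice alone.

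Proteases that degrade elastin and their inhibitors formed a list of 19. In *Acta2-tdT* cells 13 of 14 tested were higher with bleomycin, against 70.4% of all genes. After the scaling 9 were higher and 3 lower, against 23.9% of all genes higher and 4066 of 12523 lower. Of the 14, 2 reached 1 FPKM in bleomycin mice only. *Timp1*, an inhibitor of matrix metalloproteinases, had the largest log2 difference, 5.09 after the scaling (SE 0.304, adjusted p = 1.06e-05). *Mmp12*, the elastase of macrophages, went from 0.783 ± 0.324 to 75.2 ± 79.5 FPKM (SD, n = 4), a log2 difference of 4.96 and 2.45 after the scaling (adjusted p = 0.00184). *Ctss*, a cathepsin of macrophages that cleaves elastin, differed by 2.95 after the scaling (adjusted p = 0.0005). *Mmp14* and *Mmp2*, a membrane-bound metalloproteinase and the gelatinase that it activates, differed by 2.85 and 2.81 after the scaling. *Elane*, the elastase of neutrophils, was not tested and had at most 0.0813 FPKM in any mouse. The inhibitors *Timp3* and *Slpi* were higher before the scaling (1.70 and 1.49) and lower after it (-1.17 and -1.46), and so was *Timp4* lower after it (-1.72). These 3 are likewise named after their values were seen.

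*Mmp12* and *Ctss* were not called between the lines with all mice. Of the 14 proteases and inhibitors tested with bleomycin 11 were called higher in *Acta2-tdT* cells before the scaling, against 71.0% of all genes. Of these 14, 3 reached 1 FPKM in *Acta2-tdT* mice only. All 14 were called without *Pdgfra-tdT* mouse 5, against 75.9%, and 7 were called after the scaling with or without it, against 15.6% and 27.3%. With saline 2 of 9 tested were called on either scale, against 2.72% and 3.13%, and 7 without *Pdgfra-tdT* mouse 3, against 25.1% and 24.7%. With bleomycin *Mmp12* was 195 ppm on average in *Acta2-tdT* and 373 in *Pdgfra-tdT* mice, with a scaled log2 difference of -0.66 (adjusted p = 0.585), and *Ctss* was 1740 and 3210 ppm (-0.64, adjusted p = 0.549). *Mmp14* and *Mmp2* were higher in *Acta2-tdT* cells, by 3.12 and 3.08 after the scaling. None of the 7 genes of this list tested in *Pdgfra-tdT* cells was called between bleomycin and saline, although *Ctss* and *Mmp12* had log2 differences of 4.62 (adjusted p = 0.361) and 3.19 (adjusted p = 0.791). The macrophage markers listed above were high in the same mice. The interaction of line and treatment was called for 5 of 14 genes of this list, against 36.6% of all genes. After the scaling it was called for 1, against 1.24%, and the median log2 value of the list was -0.59. Without both mice that stood apart these counts were 8 and 4, against 48.3% and 3.70% of all genes.

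Genes with a profile like that of *Eln* were ranked by Pearson's r over the 16 mice, on log2(scaled FPKM + 1), among 9854 genes. The 5 nearest were *Col6a2* (0.989), *Col6a1* (0.985), *Bgn* (0.984), *Thbs1* (0.982) and *Postn* (0.977). Among the members *Efemp2* (0.962, rank 23) and *Fbn1* (0.951, rank 36) were nearest, and *Mfap2* (0.419, rank 4618) and *Fbln5* (0.289, rank 5415) were farthest. Over the 45 pairs of members r ranged from 0.139 to 0.962, with a median of 0.819. The 16 mice fall into 4 groups that share a treatment and a labelled line, so these values mostly describe differences between groups. With the group means taken out, r between *Eln* and the others ranged from 0.275 (*Fbln5*) to 0.803 (*Emilin1*).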

How the data were processed

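Each of the 16 mice had 1 table of gene FPKM. Per the labels, the authors aligned reads with TopHat2 2.1.1 and Bowtie2 to mm10 and computed FPKM with Cufflinks 2.1.1, for each mouse on its own. The deposited FPKM carry no counts, so depth is unknown and no counting interval is given. No 2 of the mice had identical values.

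Rows of a gene were summed (49534 rows, 49452 genes), and 15 genes whose estimate was not marked as successful in every mouse were left out of tests. Genes with at least 1 FPKM in at least 4 mice of a comparison were tested on log2(FPKM + 1) with limma 3.58.1 (R 4.3.3, trended empirical Bayes), with Benjamini-Hochberg adjustment over all genes tested and a threshold of 0.05. Differences on this scale understate the change of low genes. Every fit was repeated after scaling each mouse to a nuclear protein-coding sum of 74405.6 FPKM. Single values were compared by the exact two-sided permutation test over 70 labellings. The limma step was tested on simulated data. Python 3.11.15, pandas 2.3.3, SciPy 1.17.1 and matplotlib 3.10.9 were used.

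The 10 genes and all lists were chosen with earlier results of these data known. All 10 are named. Of the other lists, the leading 4 genes are named, and those called in the same direction with and without the scaling by size of change, at most 6 in a comparison. Alternatives were another pseudocount (0.1), no filter or a mean of at least 5 FPKM, quantile normalization, sample weights, the largest row of a gene, all 16 mice in 1 fit, the replicate number as a block, and leaving out each mouse. The filter used every mouse of the comparison also where a mouse was left out. A nuclear protein-coding sum of 1000000 and leaving out both mice that stood apart, also for the other lists and the sums, were added after seeing the data.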

Additional observations from a re-analysis of the deposited data

Results flagged for a closer look

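In 13 of 40 sets of 4 mice (10 genes in 4 groups), 1 mouse lay far from the other 3 by Dixon's criterion, which chance meets in about 1 set in 20. In *Pdgfra-tdT* bleomycin mouse 5 this held for 9 genes, with FPKM of 4.29 for *Eln*, 2.35 for *Fbn1*, 42.1 for *Mfap2*, 24.5 for *Mfap4*, 30.8 for *Mfap5*, 8.26 for *Fbln1*, 1.07 for *Fbln5*, 5.59 for *Efemp2* and 5.91 for *Emilin1*. In *Pdgfra-tdT* saline mouse 3 it held for *Mfap2* (15.4), *Mfap5* (16.6) and *Fbln2* (3.23), and in *Acta2-tdT* saline mouse 4 for *Mfap4* (5.24). The 9 values of one mouse come from 1 library and are not separate observations.

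The effect of bleomycin differed between the lines for all 10 genes by the interaction term of limma on log2(FPKM + 1), adjusted over all genes, where 36.6% of 16605 genes were called in the same direction. The differences, *Acta2-tdT* minus *Pdgfra-tdT*, were 5.93 for *Fbln2*, 5.50 for *Mfap5*, 4.83 for *Eln*, 4.81 for *Fbn1*, 4.23 for *Efemp2*, 3.73 for *Mfap4*, 3.69 for *Mfap2*, 3.40 for *Emilin1*, 2.65 for *Fbln1* and 1.25 for *Fbln5*. After the scaling only *Fbln2*, *Fbn1* and *Eln* stayed past the threshold.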

How the results depend on the processing

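The number of members called higher with bleomycin in *Acta2-tdT* cells was 9 or 10 under every alternative that kept all mice, and with 1 mouse left out it was 10 before the scaling and 8 to 9 after it. Between the lines with bleomycin it was 7 to 10 with all mice, and with 1 mouse left out 9 to 10 before the scaling and 5 to 9 after it. In *Pdgfra-tdT* cells it was 0 throughout. For most of these alternatives the share of all genes called is not given, so the counts of members under them are a description.

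Between the lines with saline the count of 1 was not stable. It was 2 after the scaling, 4 with sample weights, and 0 with quantile normalization, a pseudocount of 0.1, no filter, a mean of at least 5 FPKM, or all 16 mice in 1 fit, and it ranged from 0 to 4 with 1 mouse left out, before the scaling and after it. Of all genes, 2.72% were called higher in the main fit and 3.13% after the scaling. Without *Pdgfra-tdT* saline mouse 3, where the count was 4, it was 25.1%. The interaction count of 10 was 3 after the scaling, 5 with quantile normalization, 2 after the scaling with a pseudocount of 0.1, 2 after scaling to a sum of 1000000 (added after seeing the data) and 6 after the scaling without both mice that stood apart (also added), and with 1 mouse left out it was 9 to 10 before the scaling and 2 to 6 after it. The cause was not tested.

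Some single genes changed sign. For *Fbln5* in *Acta2-tdT* cells the log2 difference was -0.029 after the scaling, -0.076 with a pseudocount of 0.1 besides and -0.079 with a sum of 1000000, and with 1 mouse left out it was 1.22 to 1.37 before the scaling and -0.075 to 0.0084 after it. For *Mfap5* in *Pdgfra-tdT* cells it was -0.24 after the scaling, -0.055 with a pseudocount of 0.1, -0.66 with both, -0.69 with a sum of 1000000 and -0.22 after the scaling without both mice that stood apart, and with 1 mouse left out it ranged from -0.73 to 1.11 before the scaling and from -0.96 to 0.51 after it. For *Mfap5* between the lines with saline it ranged with 1 mouse left out from -0.14 to 1.10 before the scaling and from -0.11 to 1.07 after it. None of the *Mfap5* values below 0 passed the threshold.

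The lines share replicate numbers, but same-numbered mice are different animals. The correlation of their deviations from the group means lay between -0.251 and 0.125. It was not set against that of mice with different numbers, so it cannot exclude a shared batch. The numbers were not taken as pairs in the main fits. With the replicate number as a block, 0 members were called between the lines with saline, before the scaling and after it, and 10 and 7 with bleomycin. The share of all genes called under the block is not given, so these counts are a description. Saline and bleomycin mice share no numbers, so no block was possible there. FPKM hold no depth, so low levels cannot be told from 0 by counting.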
